A study of Mesocricetus auratus with 6 samples.

Results

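The genes described here are 9 genes of collagen maturation: the prolyl hydroxylase subunits P4ha1, P4ha2 and P4hb, the lysyl hydroxylases Plod1, Plod2 and Plod3, the collagen chaperone Serpinh1, and the lysyl oxidases Lox and Loxl1. They were chosen by name, and every probe set whose annotation gave exactly 1 of these symbols was taken, which made 14 probe sets of the 22626 tested, for 9 of 12393 genes. On day 5 of pregnancy RNA was taken from the uterus of untreated golden hamsters, Mesocricetus auratus, and hybridised to an Affymetrix mouse array. The 3 implantation site arrays held uterine tissue where an embryo had attached, and the 3 interimplantation site arrays held the tissue between such places. Strain and age are not given in the sources used here, and the series' design text states that the RNA sets came from 3 animals, without saying which arrays share an animal. All 9 symbols were also symbols of the hamster RefSeq annotation BCM_Maur_2.0.

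A newly made collagen chain is modified in the endoplasmic reticulum before it folds. Prolyl hydroxylases, made of a catalytic alpha subunit and the disulphide isomerase P4hb, hydroxylate prolines and so make the triple helix stable at body temperature. Lysyl hydroxylases modify lysines that later carry sugars and cross-links, and Serpinh1 binds the folded helix on its way to the Golgi. Outside the cell, the copper enzymes of the lysyl oxidase family oxidise lysines of collagen and elastin, which starts their cross-linking. In rodents the stroma and its matrix are remodelled around the attached embryo.

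Of the 9 genes, 3 were higher at the implantation site: Serpinh1 by both of its probe sets, Loxl1, and P4ha1 by the brighter of its probe sets. The increases lay between 1.44-fold and 1.78-fold. P4ha2, the other alpha subunit, had a difference of the same size as the brighter P4ha1 probe set (0.53) but missed the threshold. No member probe set was called lower, and P4hb, the 3 lysyl hydroxylases and Lox were not called. By limma with Benjamini-Hochberg adjustment over all tested probe sets, 4 of the 14 member probe sets passed an adjusted p under 0.05 as higher, where 1.26% of all probe sets did (1.05% as lower). All values are log2 RMA signals, and differences are implantation minus interimplantation.

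The median difference was 0.22 over the 14 member probe sets and −0.02 over all tested probe sets. Of the 14, 13 had a positive difference, as did 43.5% of all. In 7 of the 14 the implantation arrays all lay above the interimplantation arrays, a pattern found in 7.62% of all probe sets. In none did they all lie below, against 11.7% of all. These shares describe genes that were chosen with earlier results known, and they were not tested.

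**Figure D1:**
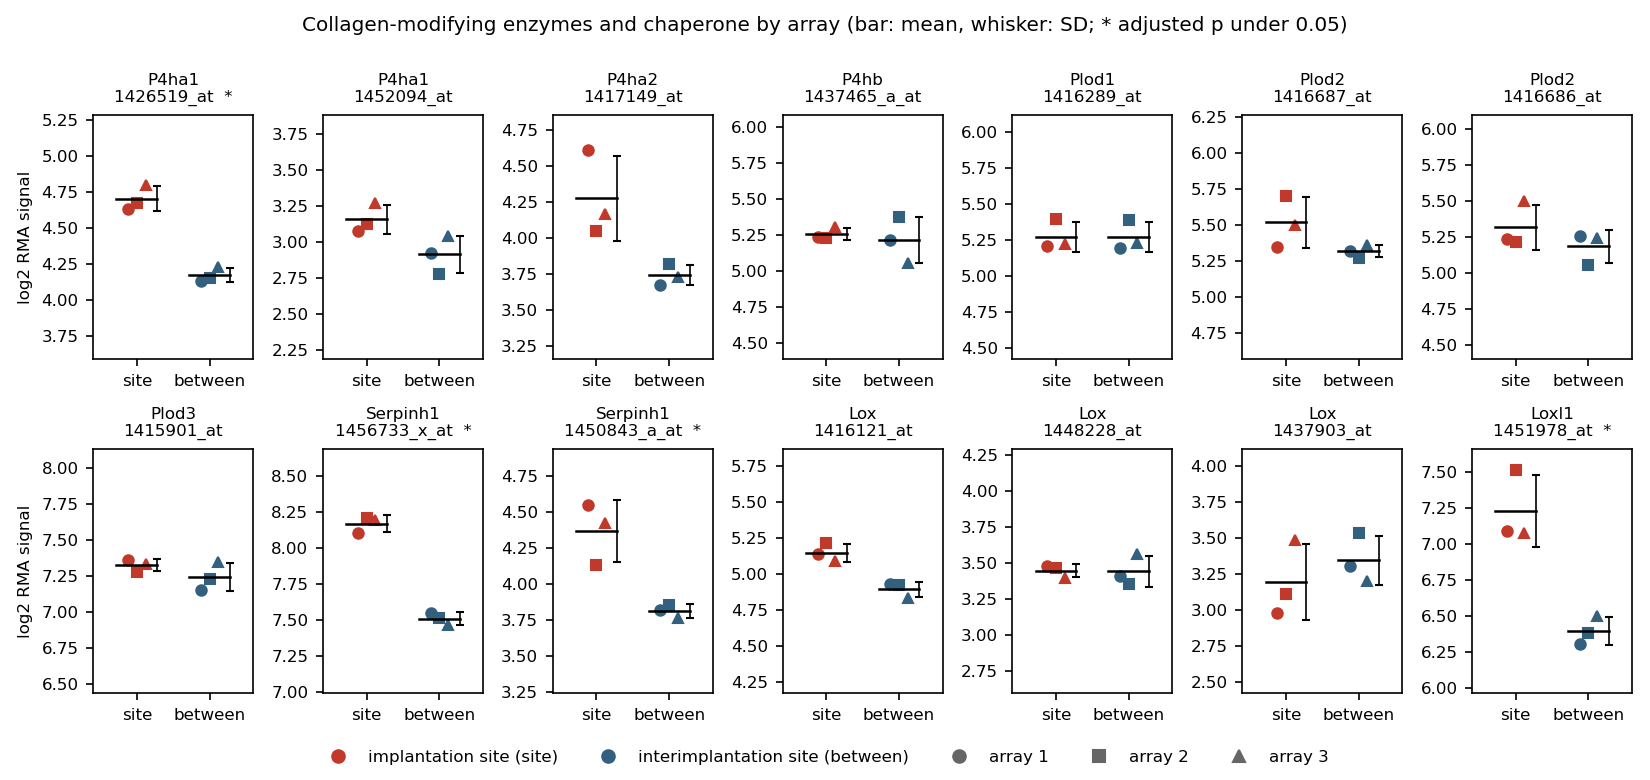
Log2 RMA signal (vertical axis, spanning the same number of log2 units in every panel) of the 14 member probe sets on the implantation arrays (red, left) and the interimplantation arrays (blue, right), with each group's mean (bar) and SD (whisker, n = 3). The 2 groups are apart for Serpinh1, Loxl1, P4ha1, P4ha2 and 1 of the 3 Lox probe sets, and they overlap for P4hb, Plod1, Plod2 and Plod3.

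Among the prolyl hydroxylase subunits, P4ha1 is the main catalytic subunit of most cells. Its probe set 1426519_at read 4.64, 4.68 and 4.80 on the implantation arrays, against 4.13, 4.16 and 4.23 on the interimplantation arrays. All implantation values stood above all interimplantation values, and each group spread over less than the gap between them. The difference was 0.53 (SE 0.08, adjusted p = 0.00584), a 1.44-fold increase. The dimmer P4ha1 probe set, 1452094_at, read 3.08 to 3.27 at the site and 2.78 to 3.04 between sites, with a smaller difference of 0.24 (adjusted p = 0.256). The mean of both probe sets gave 0.39 (limma over genes, adjusted p = 0.0340).

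P4ha2 encodes the other widely expressed alpha subunit. Its single probe set read 4.61, 4.04 and 4.16 on the implantation arrays, against 3.67, 3.81 and 3.73 on the interimplantation arrays. The groups did not overlap, but implantation array 1 stood well above the other two, and the SD at the site (0.30, n = 3) was larger than between sites (0.07, n = 3). The difference was 0.53 (SE 0.13, adjusted p = 0.0537). It was 0.37 without implantation array 1 (adjusted p = 0.160) and 0.65 without implantation array 2 (adjusted p = 0.0432), so that single arrays placed it on either side of the threshold.

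P4hb, the beta subunit, also works as a disulphide isomerase on many secreted proteins. It read 5.23, 5.23 and 5.31 at the site, against 5.21, 5.37 and 5.06 between sites, with overlapping groups. The difference was 0.04, with a 95% interval of −0.17 to 0.25 that leaves out the difference of the brighter P4ha1 probe set (0.53) and holds that of the dimmer one (0.24). Within each array, the brighter P4ha1 probe set minus P4hb was −0.59, −0.55 and −0.50 at the site and −1.08, −1.22 and −0.82 between sites. These within-array differences did not overlap and shifted by 0.49 (exact permutation test, two-sided, p = 0.1, 0.2 adjusted over 6 pairs, where 0.1 is the smallest p that 3 against 3 arrays allow). By the dimmer P4ha1 probe set the same contrast overlapped between the groups and shifted by 0.20 (exact permutation test, p = 0.4). The brighter P4ha1 probe set minus P4ha2 was 0.43 ± 0.35 at the site and 0.44 ± 0.08 between sites (SD, n = 3 each), a shift of −0.0039 (exact permutation test, p = 1). By the dimmer P4ha1 probe set this contrast also overlapped and shifted by −0.29 (exact permutation test, p = 0.3).

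The lysyl hydroxylases differ in the lysines they prefer. Plod1 and Plod3 act mainly on lysines of the helix, Plod3 also adds sugars, and Plod2 acts on the telopeptides at the chain ends, whose hydroxylysines form the stiffer cross-links. Plod1 read nearly the same in both groups, at 5.21, 5.39 and 5.22 against 5.19, 5.39 and 5.23 (implantation against interimplantation), with a difference of 0.002 (95% interval −0.20 to 0.20). Plod3 read 7.36, 7.28 and 7.34 at the site, against 7.15, 7.23 and 7.35 between sites. Its groups overlapped, with interimplantation array 3 above implantation arrays 2 and 3, and differed by 0.08 (95% interval −0.10 to 0.27).

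Plod2 had the largest differences of the 3 enzymes, and neither of its probe sets was called. Its brighter probe set, 1416687_at, read 5.35, 5.70 and 5.50 at the site, against 5.32, 5.27 and 5.36 between sites. Implantation array 1 fell inside the range of the interimplantation arrays while the other two were above it, and the difference was 0.20 (SE 0.10, adjusted p = 0.398). The other probe set, 1416686_at, differed by 0.13 (adjusted p = 0.624), with implantation array 3 alone above the rest. By 1416687_at, Plod2 minus Plod1 within each array shifted by 0.20 (exact permutation test, adjusted p = 0.2). Its groups did not overlap but nearly touched, at 0.14 on implantation array 1 and 0.13 on interimplantation array 1. By the same probe set Plod2 minus Plod3 overlapped and shifted by 0.12, and Plod1 minus Plod3 overlapped and shifted by −0.08 (exact permutation tests, adjusted p = 0.84 and 0.84). By 1416686_at, Plod2 minus Plod1 overlapped and shifted by 0.13 (exact permutation test, p = 0.5). The intervals of all 4 lysyl hydroxylase probe sets lay below both Serpinh1 differences (0.66 and 0.56), which have intervals of their own. That of the brighter Serpinh1 probe set (0.49 to 0.84) lay above all of them. That of the dimmer one (0.32 to 0.79) overlapped those of Plod2 1416687_at (−0.01 to 0.41) and 1416686_at (−0.09 to 0.35). No contrast between a lysyl hydroxylase and Serpinh1 was tested.

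Serpinh1 is a chaperone devoted to collagen. Its brighter probe set, 1456733_x_at, read 8.10, 8.21 and 8.19 on the implantation arrays, against 7.55, 7.51 and 7.46 on the interimplantation arrays. The arrays of each group lay close together, and the gap between the groups was several times that spread. The difference was 0.66 (SE 0.08, adjusted p = 0.00145), a 1.58-fold increase and the smallest p among the members. The suffix _x_at marks probes that can also bind other sequences. The dimmer probe set, 1450843_a_at, whose suffix marks probes shared by transcripts of 1 gene, read 4.55, 4.13 and 4.42 at the site, against 3.82, 3.85 and 3.76 between sites. It differed by 0.56 (SE 0.11, adjusted p = 0.0173), so both probe sets moved in the same direction and by a similar amount. The dimmer one was no longer called when implantation array 1 (0.47, adjusted p = 0.102), implantation array 3 (0.53, adjusted p = 0.0958) or interimplantation array 3 (0.53, adjusted p = 0.0691) was left out, whereas the brighter one was called in all 13 alternatives that included it.

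Loxl1, a lysyl oxidase that acts chiefly in elastic fibre assembly, had the largest difference of the 9 genes. It read 7.09, 7.52 and 7.08 on the implantation arrays, against 6.31, 6.38 and 6.50 on the interimplantation arrays. All implantation values were higher, with implantation array 2 the highest. The difference was 0.83 (SE 0.12, adjusted p = 0.00324), a 1.78-fold increase, and without implantation array 2 it was 0.69 (adjusted p = 0.0104).

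Lox, the founding member of the family, acts on fibrillar collagen and elastin, and its 3 probe sets did not move together. The brightest, 1416121_at, read 5.14, 5.22 and 5.09 at the site, against 4.93, 4.92 and 4.84 between sites. Its groups did not overlap, and its difference was 0.25 (SE 0.08, adjusted p = 0.160). The probe set 1448228_at, drawn from the same GenBank record, differed by 0.0035 (95% interval −0.18 to 0.19), and 1437903_at by −0.15 (95% interval −0.43 to 0.13), both with overlapping groups. By 1416121_at, the difference between Lox and Loxl1 within each array was −1.95, −2.30 and −1.99 at the site, against −1.38, −1.46 and −1.67 between sites. It did not overlap, and Lox stood 0.58 lower relative to Loxl1 at the site (difference −0.58, exact permutation test, p = 0.1, adjusted p = 0.2). By the dimmer 1448228_at and 1437903_at the groups did not overlap either, at shifts of −0.83 and −0.98 (exact permutation tests, p = 0.1 for both). All these contrasts use the same Loxl1 values and so are not independent of each other. The shift by 1448228_at is almost wholly the difference of Loxl1.

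**Figure D2:**
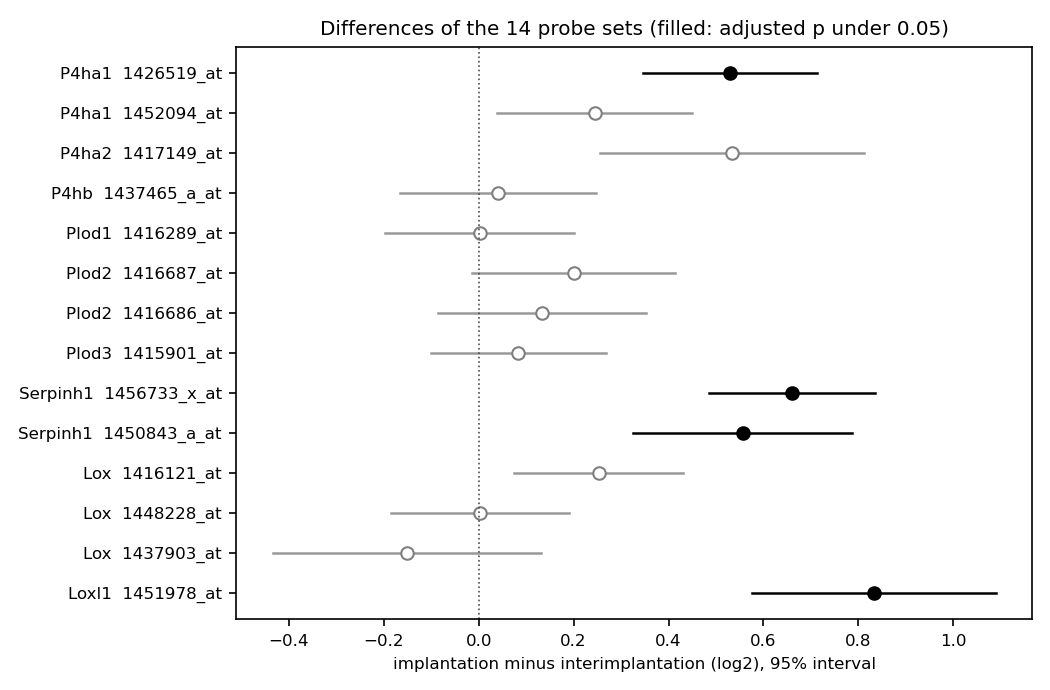
Implantation minus interimplantation difference (horizontal axis, log2) with its 95% interval from the limma fit for each of the 14 probe sets, filled where the adjusted p was under 0.05. Loxl1 (0.83) and Serpinh1 (0.66 and 0.56) have the largest differences, and Plod1 (0.002) and P4hb (0.04) lie near 0.

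**Figure D3:**
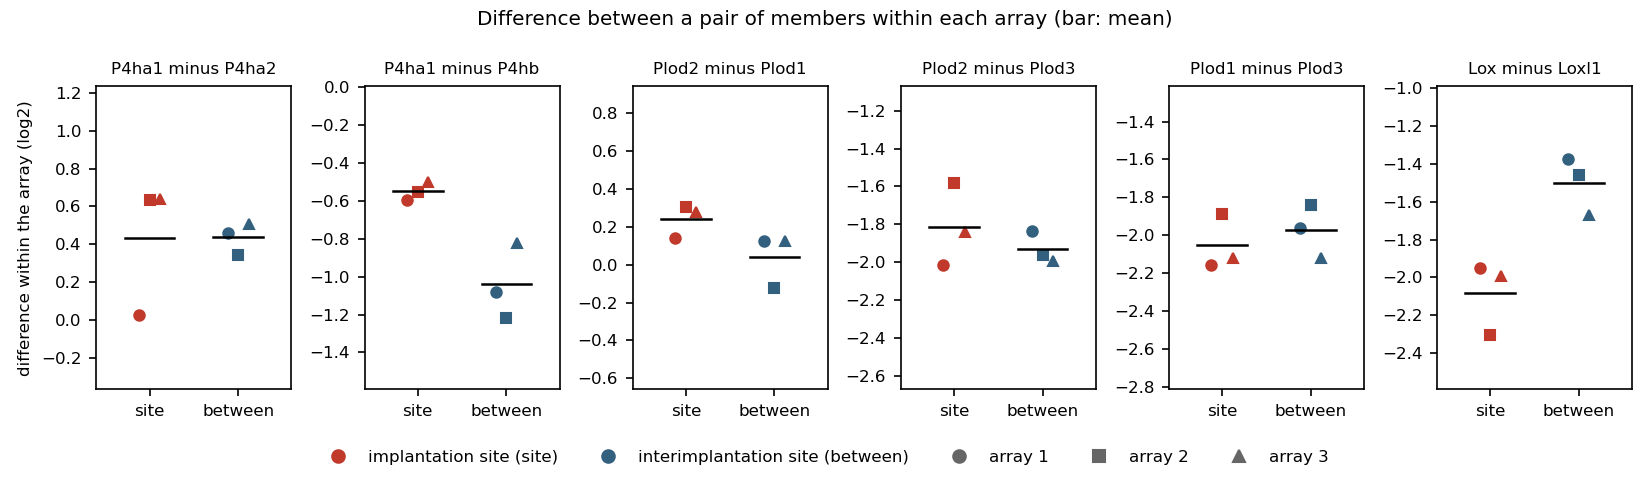
Difference between the 2 named members within each array (vertical axis, log2, with the same span in every panel) on the implantation arrays (red, left) and the interimplantation arrays (blue, right), with the mean as a bar, by the brightest probe set of each gene. The groups do not overlap for P4ha1 minus P4hb, Plod2 minus Plod1 and Lox minus Loxl1. For Plod2 minus Plod1 they nearly touch (0.14 on implantation array 1, 0.13 on interimplantation array 1).

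The calls also depended on how the arrays were set against each other. The 18 hybridisation control probe sets, to which labelled control transcripts bind, averaged 6.64 ± 0.17 on the implantation arrays and 7.03 ± 0.27 on the interimplantation arrays (SD, n = 3 each), with overlap. With each array scaled to these controls the median over all probe sets was 0.38 in place of −0.02. This scaling moves the differences of all probe sets by the same amount. Then 5 member probe sets were called higher: those named above as higher and P4ha2 (0.93, adjusted p = 0.00173), while P4hb, Plod1, Plod2, Plod3 and Lox were still not called. With the control signal added to the model, only Serpinh1 by its brighter probe set was called (0.66, adjusted p = 0.0338). Loxl1 (0.64, adjusted p = 0.0947), P4ha1 (0.55, adjusted p = 0.0664) and the dimmer Serpinh1 probe set (0.66, adjusted p = 0.0789) kept their direction without a call. What part the control signal has in these results was not tested further. Mouse probes can bind hamster RNA poorly, so a difference near 0 is not evidence that the gene itself stayed level. All 14 member probe sets were brighter than the median of 27 Bacillus control probe sets (2.68), but only those of Plod3 and Loxl1 and the brighter one of Serpinh1 exceeded the brightest of these controls (5.79).

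Most other enzymes and chaperones of collagen maturation were not called. Of 21 measured genes, 2 rose, 0 fell and 19 were not called, where 1.36% of all genes, each by its brightest probe set, were called higher and 1.18% lower. By limma, 8 of the 21 had an unadjusted p under 0.05, against 14.8% of all genes. In 8 the implantation arrays all lay above the interimplantation arrays, and in 2 all below (7.62% and 11.7% of all probe sets). These shares were not tested. The list median was 0.05, against −0.02 for all genes. Pdia6, a disulphide isomerase related to P4hb, averaged 7.06 ± 0.11 at the site and 6.55 ± 0.03 between sites (SD, n = 3 each), a difference of 0.51 (adjusted p = 0.00787). Pcolce, which enhances the removal of the carboxyl propeptide of procollagen, averaged 7.28 ± 0.16 at the site and 6.81 ± 0.05 between sites (SD, n = 3 each), a difference of 0.48 (adjusted p = 0.0221). The disulphide isomerases Pdia3 (0.48, adjusted p = 0.0594) and Pdia4 (0.36, adjusted p = 0.101) were not called. Pdia6 was not called when implantation array 1 or 3 was left out (adjusted p = 0.0590 and 0.0544). Pcolce was not called when implantation array 1 or 2 or interimplantation array 2 or 3 was left out (adjusted p from 0.0541 to 0.0843), or with the control signal in the model (0.39, adjusted p = 0.222).

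The collagen chains themselves, the substrates of these enzymes, showed no called change. Of 20 measured chain genes 0 rose and 0 fell by limma (1.36% and 1.18% of all genes). Of the 20, 2 had an unadjusted p under 0.05 (14.8% of all genes), and the median was −0.0027. The differences ran from −0.43 for Col4a5, a basement membrane chain (adjusted p = 0.0609), to 0.20 for Col18a1 (adjusted p = 0.318), a chain of basement membrane zones. Col4a5 averaged 6.36 ± 0.20 at the site and 6.79 ± 0.08 between sites (SD, n = 3 each), and it was called with array weights, without the dimmer probe sets, and without interimplantation array 1 (adjusted p = 0.0452, 0.0414 and 0.0409). Col1a1, a chain of the main fibrillar collagen, differed by 0.15 (adjusted p = 0.580) and Col6a1, a chain of microfibrils, by −0.14 (adjusted p = 0.556).

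Of 15 measured genes of elastic fibres and fibril-binding proteins, 1 rose and 0 fell (1.36% and 1.18% of all genes), with a median of −0.02. By limma, 4 of them had an unadjusted p under 0.05, against 14.8% of all genes. Fbln1, which encodes a fibulin of elastic fibres and basement membranes, read 6.73, 6.77 and 6.75 at the site and averaged 6.75 ± 0.02 there and 6.08 ± 0.16 between sites (SD, n = 3 each). It differed by 0.68 (adjusted p = 0.00294), and by 0.50 without a call when the control signal was in the model (adjusted p = 0.0852). Fbln5, which in mice guides Loxl1 to elastic fibres, had a negative difference of −0.35 (adjusted p = 0.0844), which became 0.05 on the scale of the controls. The microfibril genes Mfap5 (0.44, adjusted p = 0.0903) and Mfap2 (−0.34, adjusted p = 0.199) lay on opposite sides of 0 and were not called.

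**Figure D4:**
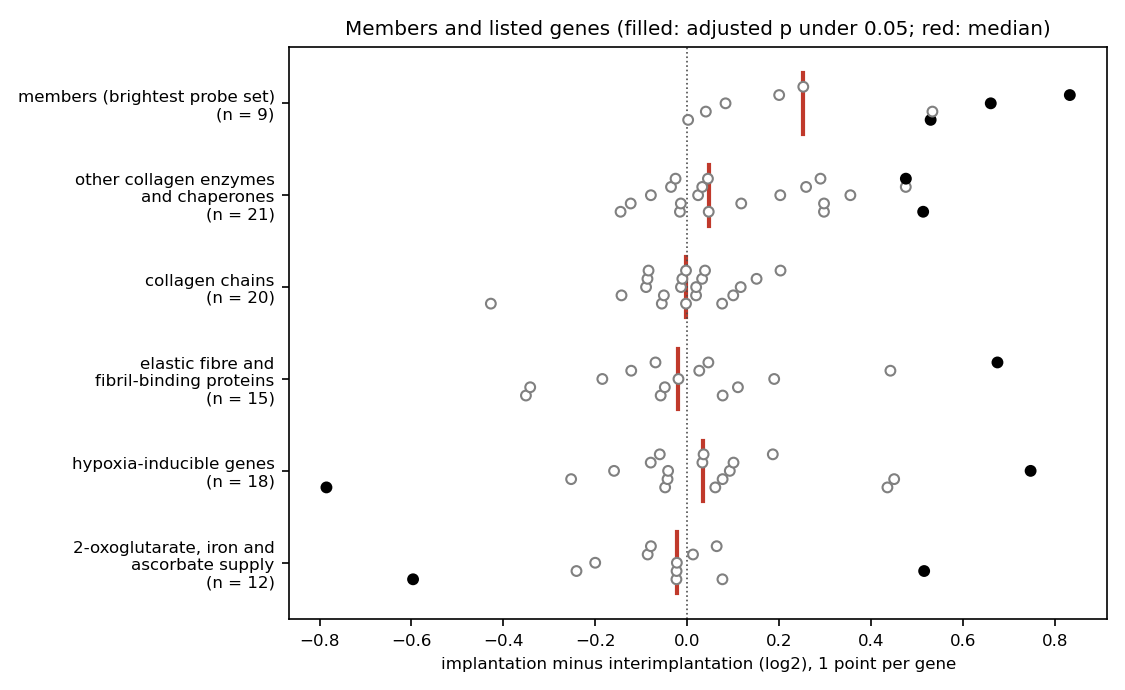
Implantation minus interimplantation difference (horizontal axis, log2) of each member gene and each listed gene by its brightest probe set, filled where the adjusted p was under 0.05, with the list median in red. The 9 members have a median of 0.25, and the 20 collagen chains lie around 0 with a median of −0.0027.

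Markers of the cell types of the uterus were compared as well. Over all genes, each by its brightest probe set, 1.36% were called higher and 1.18% lower. In whole tissue, fewer cells of a type and less RNA per cell cannot be told apart. Of 9 stromal and fibroblast markers 6 exceeded the brightest Bacillus control. In that list 0 were called, 7 of the 9 differences were negative, and their summed linear signal was 1015 to 1184 at the site and 1104 to 1286 between sites. Hand2, a stromal transcription factor, had the smallest p of them (0.58, adjusted p = 0.0685). It was called higher with array weights, without the dimmer probe sets, on the scale of the controls and without interimplantation array 1 (adjusted p = 0.0446, 0.0466, 7.89e-04 and 0.0493). Some smooth muscle and epithelial markers fell. Of 9 smooth muscle markers 2 fell, 7 had a negative and 2 a positive difference, and their summed linear signal was 462 to 599 at the site and 825 to 1244 between sites, with Tagln at −1.26 (adjusted p = 0.00343) and Actg2, named after its values were seen, at −1.74 (adjusted p = 0.00621). The other 7 summed to 282 to 331 at the site and 334 to 350 between sites. Of 9 epithelial markers 2 fell and 8 had a negative difference. Their summed linear signal was 269 to 280 at the site and 375 to 416 between sites. That sum holds the 2 that fell, Cd24a at −1.99 (adjusted p = 6.74e-07) and Cldn7, likewise named afterwards, at −0.78 (adjusted p = 0.00868). No sum was made without them. In 6 of the 9 the implantation arrays all lay below the interimplantation arrays (11.7% of all probe sets). In Epcam (−0.01), Krt19 (0.00068) and Cdh1 (−0.11) the groups overlapped. Cldn7 was not called on the scale of the controls (−0.39, adjusted p = 0.155) or with the control signal in the model (−0.83, adjusted p = 0.0843). Actg2 was not called with that signal in the model (adjusted p = 0.0583) or when the variance model was trended and robust (adjusted p = 0.153). None of 6 endothelial, 7 leukocyte and 6 trophoblast or embryo markers was called in either direction on the deposited scale, and those with the smallest p were Cdh5 (−0.22, adjusted p = 0.446), Cd68 (0.38, adjusted p = 0.140) and Elf5 (−0.18, adjusted p = 0.446). Cdh5 was called lower without interimplantation array 1 (−0.38, adjusted p = 0.0356), and Cd68 was called higher on the scale of the controls (0.78, adjusted p = 0.0155) and when interimplantation array 3 was left out (0.52, adjusted p = 0.0301). By limma, 0, 1 and 0 markers of these 3 lists had an unadjusted p under 0.05, against 14.8% of all genes. In the stromal, smooth muscle and epithelial lists 3, 5 and 5 of 9 had one. Among the endothelial, leukocyte and trophoblast or embryo markers 1, 3 and 1 exceeded the brightest Bacillus control. Of the smooth muscle and epithelial markers 4 and 2 exceeded it. With most of these probe sets so dim, a missing call is not evidence that a cell type stayed level. The signal has no true 0 on this scale. The part of these markers in the results on the collagen genes was not tested.

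The genes whose array-to-array pattern lay closest to the brighter Serpinh1 probe set were Srsf2, a splicing factor, Trim28, a corepressor of transcription, and Hnrnpu, a nuclear RNA-binding protein. With each profile centred on its own mean over the 6 arrays, their root mean square distances to it were 0.054, 0.063 and 0.071 on the log2 scale. That distance takes in the difference between the groups. Differences near that of Serpinh1 (here 0.65, 0.67 and 0.64) therefore follow from how the genes were picked and are no separate result.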

How the data were processed

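The deposited values were log2 RMA signals (robust multi-array averaging), made by the authors with Partek 6.6 per the submitters' processing notes. The order of steps and the log base are not given in the sources used here, and base 2 was taken as RMA's usual output. The table had 22690 probe sets, and all 22626 that were no controls were tested, however dim. Gene symbols came from the platform annotation. Groups followed the sample titles, and the number of arrays limits the precision. By the design text the RNA sets came from 3 animals, so some arrays share an animal, but which ones is not given. The arrays were treated as independent all the same. The test was that of limma 3.58.1 in R 4.3.3 (lmFit, eBayes, two-sided), with Benjamini-Hochberg adjustment over 22626 probe sets. The calculation was tested on simulated data. Listed genes stood by their brightest probe set, and the rule named every called gene and the 4 with the smallest p of each pathway list, the first marker of each marker list, and the 3 nearest patterns. Members and lists were chosen with earlier results of these data known. Alternatives covered variance model, normalization, covariate, weights, filters, replicate block and each array left out. No sequence was used.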

Additional observations from a re-analysis of the deposited data

How the results depend on the processing

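The deposited scale gave 284 higher and 238 lower probe sets, 4 higher member probe sets, and 5 higher and 2 lower genes over the pathway lists. Scaling to the hybridisation controls gave 752 and 13 probe sets and 13 and 0 listed genes. The control level as a covariate gave 77 and 130 probe sets, 1 member probe set, and 1 higher and 1 lower listed gene. Array weights gave 363 lower probe sets and 8 higher listed genes. Leaving out the dimmer probe sets gave 2 member probe sets, since the P4ha1 and P4ha2 probe sets and the dimmer Serpinh1 one were not in it, and 8 higher listed genes. Leaving out probe sets ending in _s_at, _x_at or _a_at, both of Serpinh1 among them, gave 138 and 96 probe sets, 2 member probe sets, and 2 higher and 1 lower listed gene. Leaving out 1 array at a time gave 117 to 329 higher and 88 to 401 lower probe sets, 3 to 5 member probe sets, and 1 to 7 higher and 2 to 4 lower listed genes. The shift of the brighter P4ha1 probe set minus P4ha2 then ran from −0.11 to 0.20. These shifts, the contrasts by dimmer probe sets or after repeated quantile normalization and the smooth muscle sum without its called markers were chosen after seeing the data. The cause was not tested. Same-numbered arrays of the 2 groups did not deviate together (correlations of deviations −0.090, 0.071 and −0.028), so the numbers were not taken as pairs. The replicate block gave 5 member probe sets, with P4ha2 added (adjusted p = 0.0487). P4ha2 was called in 6 of 13 alternatives. Values that were not called changed sign in some settings. Lox 1448228_at was at −0.022 with array weights and ran from −0.041 to 0.063 with 1 array left out, Plod1 was at −0.015 with weights and −0.18 with the covariate and ran from −0.058 to 0.062, and P4hb was at −0.048 with the covariate and ran from −0.039 to 0.12. With the control scaling, Lox 1437903_at turned to 0.25, Cdh5 to 0.17, Col6a1 to 0.25, Elf5 to 0.21, Fbln5 to 0.046, Mfap2 to 0.055, Idh1 to 0.20 and Phyh to 0.16. That scaling takes the same control difference (−0.40) out of every probe set. Small negative differences therefore had to change sign, which is no separate result on these genes. An exact permutation test of a single probe set cannot go below p = 0.1 with 3 against 3 arrays and shows nothing about stability.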

Other observations

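The hydroxylases need 2-oxoglutarate, iron and ascorbate. Of 12 measured genes of their supply 1 rose and 1 fell (1.36% and 1.18% of all genes), with a median difference of −0.02. By limma, 3 of them had an unadjusted p under 0.05, against 14.8% of all genes. Slc25a11, the mitochondrial carrier of 2-oxoglutarate, averaged 7.68 ± 0.04 at the implantation site and 7.17 ± 0.12 between sites (SD, n = 3 each; limma difference 0.52, adjusted p = 0.00940), and was not called when implantation array 1 or 3 was left out (adjusted p = 0.0535 and 0.0587) or with the control signal in the model (adjusted p = 0.159). Gstp1, a glutathione transferase and so only loosely tied to that supply, averaged 8.50 ± 0.07 at the site and 9.10 ± 0.05 between sites (SD, n = 3 each; limma difference −0.60, adjusted p = 0.00278). It was at −0.20 on the scale of the hybridisation controls (adjusted p = 0.391) and at −0.55 with their signal in the model (adjusted p = 0.0608), without a call in either. Phyh, a peroxisomal enzyme that uses 2-oxoglutarate, and Idh1, which makes it, were at −0.24 and −0.20 (adjusted p = 0.292 and 0.420).

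The members known as targets of the hypoxia-inducible factors include P4ha1, P4ha2 and Plod2, and this list is not complete. Of 18 other hypoxia-inducible genes measured, 1 rose and 1 fell (1.36% and 1.18% of all genes), with a median of 0.03. By limma, 5 of them had an unadjusted p under 0.05, against 14.8% of all genes. The histone demethylase Kdm3a averaged 4.84 ± 0.17 at the site and 5.62 ± 0.16 between sites (SD, n = 3 each; limma difference −0.79, adjusted p = 0.00311), and was not called on the scale of the controls (−0.39, adjusted p = 0.154). The glucose transporter Slc2a1 rose by 0.75 (limma, adjusted p = 0.0295), and was not called when implantation array 1, 2 or 3 was left out (adjusted p = 0.157, 0.0619 and 0.111) or with the control signal in the model (adjusted p = 0.296). Pgk1 (0.45) and Mif (0.44) were not called on the deposited scale (limma, adjusted p = 0.0579 and 0.0605). Both were called on the scale of the controls (adjusted p = 0.00662 and 0.00798) and with array weights (0.0195 and 0.0340). They were also called without the dimmer probe sets (0.0393 and 0.0411). With the control signal in the model neither was called (adjusted p = 0.232 and 0.382).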
